A study of Homo sapiens with 6 samples.

Results

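The miR-548 family was examined in small RNA libraries of BEAS-2B, an established, virus-immortalised line of human bronchial epithelial cells. Its members were all rows of class mature that carry a miR-548 name, alone or joined with others, which gave 63 of 1727 rows. Of these, 6 rows join several names that the tables count together, so that the 63 rows hold 70 miR-548 names. The control group (n = 3 libraries) received the plasmid pcDNA3.1 and the PRMT1 group (n = 3 libraries) received pcDNA-PRMT1, both for 48 h. PRMT1 is the main enzyme that places asymmetric dimethyl marks on arginines of proteins, and the comparison asked which miRNAs differ when it is over-expressed. The tables measure small RNA, so the level of PRMT1 itself was not checked. The labels do not say whether replicates were separate cultures, and p-values then measure only the spread between these libraries.

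The miR-548 hairpins are derived from MADE1, a short palindromic DNA transposon of the mariner type that spread in the primate lineage, and the family is therefore scattered over the genome and lacks a mouse counterpart. Because the parent element is a near-perfect inverted repeat, its RNA folds into a hairpin from which DROSHA and DICER can cut a 5p and a 3p strand. The seed, bases 2 to 8 of the mature strand, directs a miRNA to its target messages, so members with different seeds are expected to read different target sets.

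Sequences were found in the RefSeq table (GRCh38.p14) for 43 of the 63 rows, which held 67.3% of the family's counts. The set below shows the most abundant members with a sequence, some of the pairs whose reads are compared later and both arms of miR-548b. No sequence was found for the row of miR-548ad-5p and miR-548ae-5p, which is set beside miR-548n later. Capitals mark the seed.
miR-548k: aAAAGUACuugcggauuuugcu
miR-548l: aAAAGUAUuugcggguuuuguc
miR-548n: cAAAAGUAauuguggauuuugu
miR-548ab: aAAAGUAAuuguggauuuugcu
miR-548b-5p: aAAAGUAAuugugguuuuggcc
miR-548j-5p: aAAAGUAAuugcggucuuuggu
miR-548b-3p: cAAGAACCucaguugcuuuugu
miR-548aq-3p: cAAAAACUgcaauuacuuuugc
miR-548o-3p: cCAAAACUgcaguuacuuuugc
miR-548av-3p: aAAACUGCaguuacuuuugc
miR-548s: aUGGCCAAaacugcaguuauuuu
The inverted repeat is visible in the hairpin of miR-548at (chr17:42494773-42494830, plus strand, GRCh38.p14, in an intron of ATP6V0A1, a subunit of the vacuolar proton pump), where capitals mark the 5p and the 3p strand.
MIR548AT: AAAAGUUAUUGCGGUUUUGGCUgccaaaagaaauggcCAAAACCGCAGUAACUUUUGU

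The 43 sequences were 18 to 23 bases long and rich in A and U, with a median of 63.6% A or U against 47.8% over the 2315 other mature names of the RefSeq table. They carried 24 distinct seeds. The seed AAAGUAA was shared by 10 members, among them miR-548b-5p, miR-548j-5p and miR-548ab, and by miR-559 outside the family. The seed AAAAACU was shared by 5 members, all 3p strands, among them miR-548aq-3p. The letters AAAGUAAUU, which extend the seed AAAGUAA, were in 9 of the 43 sequences and in 1 of the 2315 others (0.0432%). Their reverse complement AAUUACUUU, searched likewise, was in 6 of the 43 and in 1 other. Of the 903 pairs that the 43 sequences form, 21 shared an unbroken run of at least 15 bases, and in 4 the shorter sequence lay wholly inside the longer. Runs of at least 15 bases in reverse complement linked 10 pairs. How the submitters divided reads that match several names is not given in the sources used here. Counts of single names are therefore uncertain throughout the family, and 7 of the 11 tested members with a sequence share such a run with another member.

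The mature coordinates placed 46 hairpins on 21 chromosomes (RefSeq, GRCh38.p14, a newer build than the GRCh37.p13 of the submitters' processing notes). Coordinates on chr8 were left out, so the 46 are not all hairpins of these members. The hairpin of miR-570 is among them, because its 5p name is joined with miR-548ai. By GENCODE release 29, and judged by a mature strand of each, 30 of them lay inside a gene on the same strand. The mature strand overlapped an exon of that gene in 0 of the 30, so it was intronic in all 30. The rest of the hairpin was not compared with exons. These 30 include the hairpin of miR-570, in MUC20-OT1. Another 6 lay inside a gene of the opposite strand only, and 10 inside none of the genes used. Not all abundant members had a host, since the hairpins of miR-548ap and miR-548ay lay in none of the genes used and miR-548d had no position here. Where there were hosts of abundant members, they were unrelated. MiR-548k (chr11:70283986-70284007, plus strand) lies in an intron of PPFIA1, a liprin that organises cell adhesions, in the 11q13 region that is often amplified in squamous carcinomas. MiR-548b (chr6:119069062-119069083 for the 3p strand, minus) lies in FAM184A, and miR-548n (chr7:34940804-34940825, minus) in DPY19L1, a putative C-mannosyltransferase. MiR-548j (chr22:26555274-26555295 for the 5p strand, minus) lies in TPST2, which sulphates tyrosines, miR-548l (chr11:94466545-94466566, minus) in MRE11, a DNA repair nuclease, and miR-548s (chr2:11767495-11767517, plus) in LPIN1, a phosphatidate phosphatase.

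Total counts were 23.95 M to 25.79 M per library, of which known mature miRNAs took 11.54 M to 16.42 M. Control library 2 had the most known miRNA counts and the largest share of miR-21-5p in them (66.0%, against 49.4% to 59.1% in the other 5). The 7 epithelial miRNAs of the marker list (5 of the miR-200 family, miR-205-5p and miR-203a-3p) summed to 7674 to 10060 CPM in control and 8170 to 8815 CPM in PRMT1 libraries, chiefly miR-200a-3p, miR-200b-3p and miR-429, while miR-205-5p and miR-203a-3p stayed below 10 CPM. Of the lists for other cell types, the 5 blood miRNAs were higher without overlap in PRMT1 libraries (17.5 to 37.4 CPM against 10.6 to 15.4 CPM), carried by miR-451a and miR-150-5p, with miR-142-3p, miR-142-5p and miR-223-3p each below 1 CPM in every library. The part of this in the miR-548 values was not tested. The ranges of the liver, muscle, neural, pluripotency and fibroblast lists overlapped between groups. In bulk libraries, fewer cells holding a miRNA and less of it per cell cannot be told apart.

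The family was a small part of the miRNA content of these cells. It took 1596, 1785 and 1388 counts in control libraries 1 to 3 and 1976, 1470 and 1547 in PRMT1 libraries 1 to 3, that is, 0.0109% to 0.0137% of known miRNA counts. Levels are given below as CPM, in which the known miRNA counts of a library sum to 1000000, after TMM scaling, a correction for unequal composition of libraries. A read covers a whole mature miRNA, so CPM are not divided by length. Counts in every library were held by 38 of 63 members (60.3%), against 918 of 1664 other names (55.2%), and the median level was 0.284 CPM against 0.300 CPM. Fewer members reached the level needed for testing, 18 of 63 (28.6%) against 650 of 1664 (39.1%). These 18 held 91.8% of the family's 9762 counts, and 23 members had at most 10 counts over all 6 libraries.

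**Figure D1:**
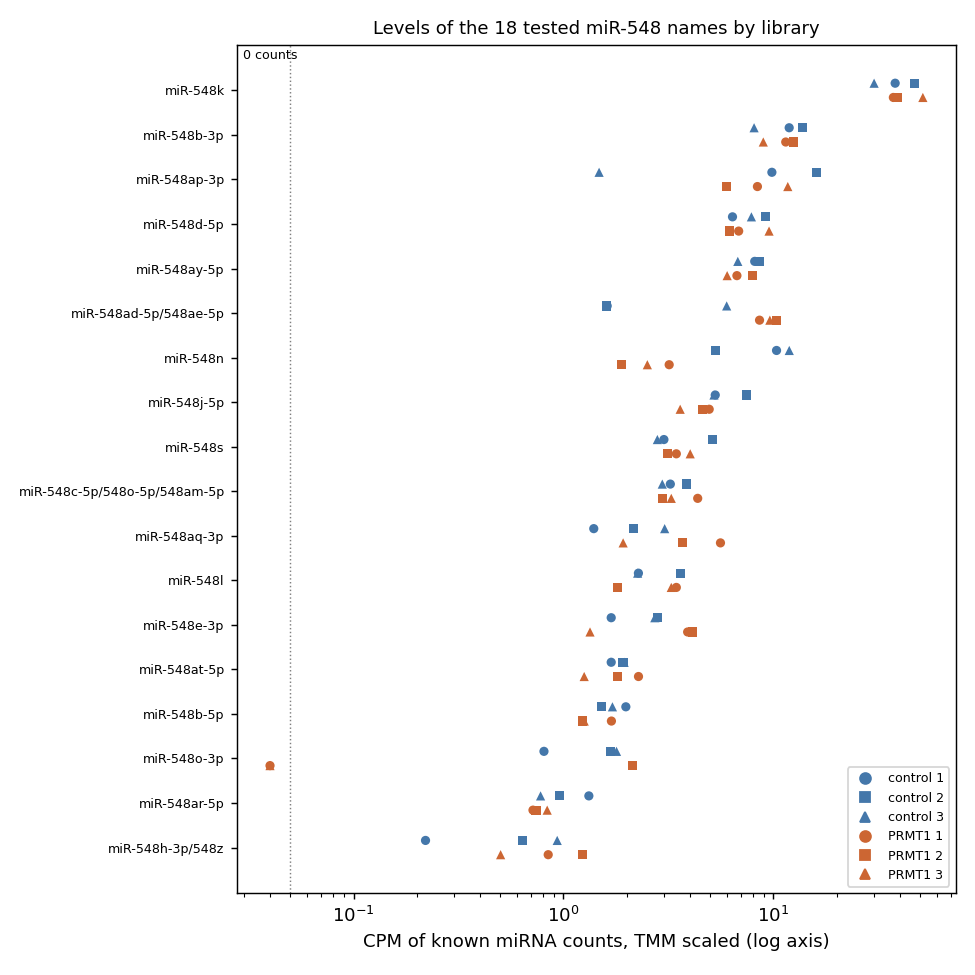
Level of each of the 18 tested miR-548 names in each library, in CPM on a log axis, with control libraries in blue and PRMT1 libraries in orange. MiR-548k stands above all other names in every library, and the colours separate for miR-548n, the row that joins miR-548ad-5p with miR-548ae-5p (miR-548ad/ae-5p), and miR-548j-5p, none of which passed the test.

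MiR-548k was the leading member in every library. It stood at 38.0, 47.1 and 30.2 CPM in control libraries 1 to 3 and at 37.3, 38.8 and 51.5 CPM in PRMT1 libraries 1 to 3. The groups overlapped, with the lowest value in control library 3 and the highest in PRMT1 library 3. It ranked 209 among the 1727 mature names and held 28.0% to 39.8% of the family's counts. The means were 38.4 ± 8.44 CPM (SD, n = 3) in control and 42.5 ± 7.82 CPM (SD, n = 3) in PRMT1 libraries, and the log2 fold change was 0.15 (SE 0.26, adjusted p = 0.931 with the quasi-likelihood test of edgeR, which gives all adjusted p-values here unless another tool is named).

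The next members lay well below miR-548k. MiR-548b-3p, the 3p strand of the FAM184A hairpin, stood at 11.9, 13.8 and 8.09 CPM in control libraries, and at 11.5, 12.5 and 8.95 CPM under PRMT1. MiR-548d-5p had 6.39, 9.20 and 7.86 CPM against 6.83, 6.17 and 9.54 CPM, and miR-548ay-5p had 8.15, 8.56 and 6.77 against 6.70, 7.98 and 6.02 CPM. In each of these the groups overlapped. Log2 fold changes were -0.04 (SE 0.30) for miR-548b-3p, -0.06 (SE 0.30) for miR-548d-5p and -0.18 (SE 0.28) for miR-548ay-5p. The last was -0.33 without control library 3 or PRMT1 library 2, and -0.10 without PRMT1 library 3.

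MiR-548ap-3p was the least even of the abundant members. The control libraries had 9.84, 16.1 and 1.48 CPM, and the PRMT1 libraries 8.39, 6.003 and 11.7 CPM. Control libraries 2 and 3 were thus the highest and the lowest of all 6, and the SD in control (7.33 CPM) came close to the mean (9.13 CPM). Its log2 fold change of -0.07 had an SE of 0.75, and was 0.59 when control library 2 was left out and -0.62 when control library 3 was.

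In miR-548s, miR-548l and the row that joins miR-548c-5p, miR-548o-5p and miR-548am-5p, all at about 3 CPM, the groups overlapped. Control and PRMT1 means were 3.64 ± 1.28 and 3.53 ± 0.451 CPM (SD, n = 3 each) for miR-548s. They were 2.71 ± 0.771 and 2.84 ± 0.898 CPM for miR-548l, and 3.34 ± 0.453 and 3.53 ± 0.736 CPM for the joined row. These 3 log2 fold changes lay between -0.04 and 0.08, with SEs of 0.31 to 0.37.

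Summed over all members, the family came to 117, 143 and 108 CPM in control libraries, and to 129, 121 and 129 CPM under PRMT1. The control libraries spanned the PRMT1 libraries on both sides. Means were 123 ± 18.1 CPM and 126 ± 4.70 CPM (SD, n = 3 each), and the difference of mean log2 values, PRMT1 minus control, was 0.05 (SE 0.12). Control library 2 was the highest after TMM scaling. Without scaling, as a plain share of known miRNA counts, that library was the lowest (109 CPM, against 120 to 137 CPM in the others) and the difference was 0.12 (SE 0.08). No p-value is given for sums, since the members were chosen with results of these data known.

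By name, 20 members were 5p strands, 20 were 3p strands, 20 carried no arm and 3 joined an armed with an unarmed name. The 5p names held 30.5%, the 3p names 24.3% and the names with no arm 44.4% of the family's counts, the last chiefly through miR-548k. The 5p sum of control libraries was 33.5, 38.6 and 36.6 CPM, and that of PRMT1 libraries 40.2, 39.9 and 38.7 CPM, so that the groups separated by a narrow margin (log2 difference 0.13, SE 0.06). Without TMM scaling the groups overlapped, with 40.7 CPM in control library 3 and 38.2 CPM in PRMT1 library 3 (log2 difference 0.20, SE 0.15). With scaling, the difference was between 0.06 and 0.16 when each library was left out in turn. The margin rested on miR-548ad/ae-5p. Without this row, an alternative chosen after seeing the data, the 5p sum was 33.2 ± 3.42 CPM for control against 30.1 ± 1.35 CPM for PRMT1, with overlap (log2 difference -0.14, SE 0.09).

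The 3p sum was 26.8, 39.4 and 20.4 CPM for control against 37.0, 30.9 and 26.1 CPM for PRMT1 (log2 difference 0.16, SE 0.31). Its groups overlapped, and the sign turned without control library 3 (-0.12) or PRMT1 library 1 (-0.009). Names with no arm summed to 56.7 ± 6.80 CPM against 54.2 ± 8.17 CPM (log2 difference -0.07, SE 0.16). Without miR-548k these names summed to 18.3, 16.6 and 19.8 CPM against 13.01, 9.87 and 12.045 CPM, where every PRMT1 library was below every control library (log2 difference -0.65, SE 0.14). Without TMM scaling they overlapped, with 12.6 CPM in control library 2 and 13.9 CPM in PRMT1 library 1. Without miR-548n as well, they stood at 9.07 ± 1.91 and 9.11 ± 0.994 CPM (log2 difference 0.02, SE 0.19). Of the names with no arm, 15 could be placed by the position of the mature strand in its hairpin, miR-548k, miR-548l and miR-548n on the 5p side and miR-548s on the 3p side. With these and the 3 joined names of mixed arm placed, the 5p sum was 88.1 ± 7.38 CPM against 89.0 ± 7.46 CPM, and the 3p sum 33.3 ± 10.8 CPM against 36.1 ± 5.55 CPM. The 5p side then led the 3p side in each of the 6 libraries.

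**Figure D2:**
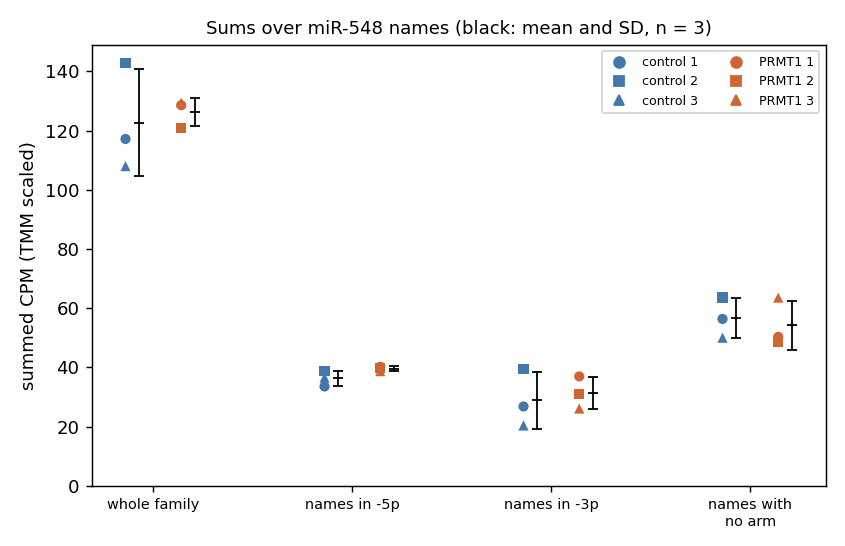
Summed CPM of the whole family, of 5p names, of 3p names and of names with no arm, with a point per library and the mean and SD of each group in black (n = 3). On this TMM scale the groups overlap except for the 5p names, whose nearest libraries are at 38.6 and 38.7 CPM and which overlap without the scaling.

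Between PRMT1 and control libraries, 0 of the 18 tested members passed an adjusted p of 0.05, where 0% of all 668 tested names passed (0 of 668). At an unadjusted p under 0.05 there were 2 members, where 5.39% of all tested names lay. Of these, 1 member was higher, where 2.84% of all tested names were, and 1 lower, where 2.54% were. The groups did not overlap in 3 of 18 members, against 10.2% of all tested names. Without TMM scaling they were 3 of 18 as well, against 8.38% of all tested names. Above 0 were 7 members and below 0 were 11, whereas 53.9% of all tested names lay above 0. The median log2 fold change was -0.05 over the members and 0.04 over all 668 names. In 13 of the 18 the fold change was smaller than its SE. DESeq2 called 1 of 63 members, miR-548n, where it called 4 of 1724 names (0.232%). EdgeR without a filter on low counts called 2 of 63, miR-548n and miR-548ad/ae-5p, where it called 9 of 1727 names (0.521%).

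**Figure D3:**
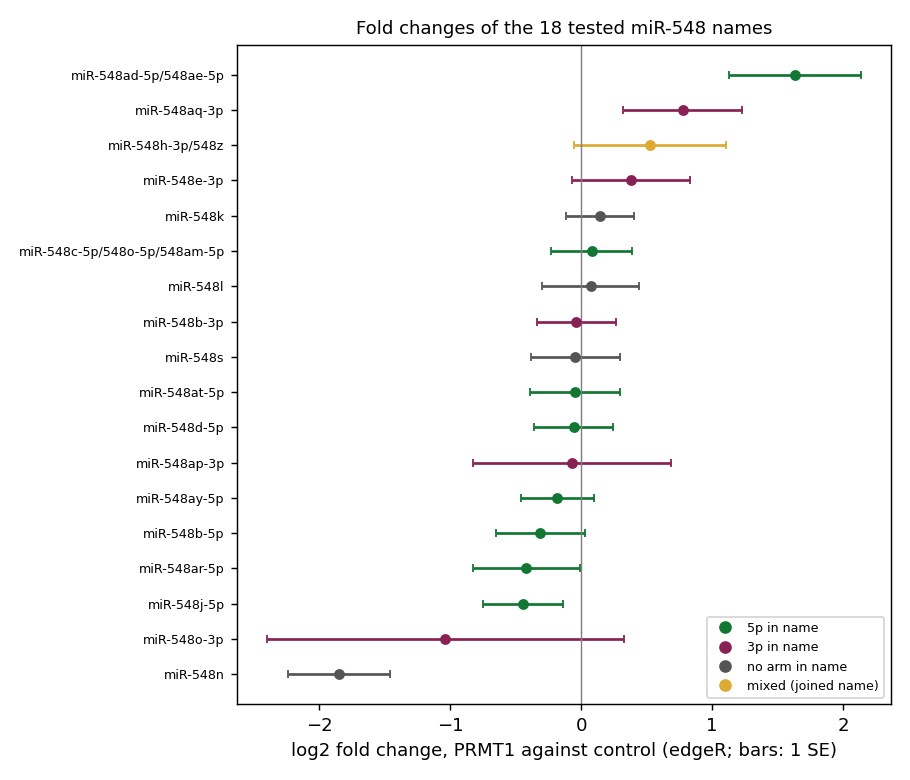
Log2 fold change of the 18 tested miR-548 names, PRMT1 against control, with bars of 1 SE from edgeR and colours for the arm in the name. The ends of the range are miR-548ad/ae-5p at 1.63 and miR-548n at -1.85, and most other names lie within 0.5 of 0.

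The ends of the range of fold changes were held by a pair of 5p-side members, in opposite directions. MiR-548n, from the DPY19L1 intron, had 10.3, 5.28 and 11.9 CPM in control libraries against 3.19, 1.89 and 2.51 CPM under PRMT1. Every PRMT1 library lay below every control library. Its log2 fold change was -1.85 (SE 0.39, adjusted p = 0.352) and ran from -2.14 to -1.69 when each library was left out in turn. DESeq2 gave -1.88 (adjusted p = 0.0139), and edgeR without the filter gave -1.85 (adjusted p = 0.00114). Over all 15 alternatives its adjusted p ran from 0.00114 to 0.999.

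MiR-548ad/ae-5p had 1.62, 1.60 and 5.99 CPM in control libraries against 8.59, 10.4 and 9.62 CPM under PRMT1. Every PRMT1 library lay above every control library, and control library 3 lay far nearer to them than the other 2 controls. Its log2 fold change was 1.63 (SE 0.50, adjusted p = 0.741), and 2.50 without control library 3 (adjusted p = 0.0557). Without the filter on low counts edgeR gave 1.64 (adjusted p = 0.00443), and over all 15 alternatives the adjusted p ran from 0.00443 to 1.

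Added together, these 2 rows came to 11.96, 6.88 and 17.9 CPM in the controls and to 11.8, 12.3 and 12.1 CPM under PRMT1, and the groups overlapped (log2 difference 0.08, SE 0.40). The sum was chosen after the values had been seen, with no sequence found for miR-548ad/ae-5p to compare with miR-548n. Over the 3 PRMT1 libraries it varied little (SD 0.247 CPM), whereas over the controls it varied widely (SD 5.51 CPM). MiR-548ab, whose sequence shares 20 unbroken bases with miR-548n and which lacks the first base of miR-548n, had 12, 1 and 2 counts in control libraries against 3, 1 and 3 under PRMT1. Added to miR-548n it left the separation in place (9.55 ± 3.65 against 2.71 ± 0.706 CPM, log2 difference -1.77, SE 0.44). Whether reads passed between these names in counting was not tested.

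**Figure D4:**
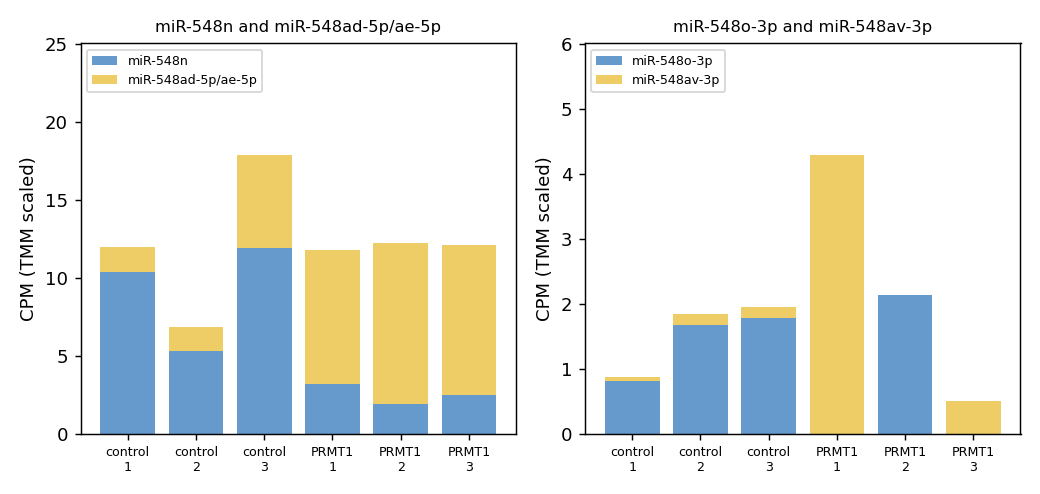
Stacked CPM per library of miR-548n with miR-548ad/ae-5p (left), and of miR-548o-3p with miR-548av-3p (right). On the left miR-548n takes most of each control bar and miR-548ad/ae-5p most of each PRMT1 bar. On the right PRMT1 libraries 1 and 3 hold miR-548av-3p in place of miR-548o-3p.

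A nested pair of names was split between libraries of the same group. The 20 bases of miR-548av-3p lie wholly inside the 22 bases of miR-548o-3p, from base 3 on. MiR-548o-3p had 11, 21 and 23 counts in control libraries, and 0, 26 and 0 under PRMT1. MiR-548av-3p had 1, 2 and 2 counts against 66, 0 and 6. The libraries without counts of the longer name were those with the most counts of the shorter name. The log2 fold change of miR-548o-3p (-1.04, SE 1.36) therefore rests on PRMT1 libraries 1 and 3, and without PRMT1 library 2 it was -7.25, a fitted value against a group at 0. Together the names came to 1.56 ± 0.587 CPM against 2.31 ± 1.90 CPM, with overlap, and PRMT1 library 1 held 4.29 CPM. MiR-548av-3p is also nested in miR-548ah-3p, where the shorter name had 77 counts and the longer 8. In the other 2 nested pairs among members with a sequence, the longer name held nearly all counts. MiR-548av-5p, which lies inside miR-548k, had 6 counts in all against 3155, and miR-548ap-5p, inside miR-548j-5p, had 21 against 407. No sequence was found for miR-548ap-3p, miR-548ad/ae-5p, miR-548d-5p and miR-548ay-5p, so nesting of these abundant rows was not examined.

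The remaining tested members differed by less than 2 SE. MiR-548j-5p, from TPST2, had 5.28, 7.44 and 5.21 CPM in the controls against 4.95, 4.61 and 3.60 CPM under PRMT1, and every PRMT1 library was below every control library (log2 -0.44, SE 0.30, adjusted p = 0.780). It was -0.28 without control library 2. MiR-548aq-3p, from an intron of the RNA-binding protein gene IGF2BP2, had 1.39, 2.16 and 3.03 CPM in the controls against 5.60, 3.70 and 1.92 CPM under PRMT1. Its groups overlapped, and the log2 fold change of 0.78 (SE 0.45, adjusted p = 0.745) was 0.33 when PRMT1 library 1 was left out and 0.52 when control library 1 was. MiR-548e-3p, at 1.69, 2.80 and 2.72 CPM against 3.90, 4.11 and 1.34 CPM, also overlapped (log2 0.38, SE 0.45), and its value ran from 0.12 when PRMT1 library 2 was left out to 0.73 when PRMT1 library 3 was. For both of these 3p members PRMT1 library 3 was the lowest PRMT1 library.

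The low tested members rested on few counts per library. MiR-548b-5p (1.74 ± 0.232 and 1.39 ± 0.259 CPM, log2 -0.31, SE 0.34), miR-548at-5p (1.85 ± 0.142 and 1.78 ± 0.512 CPM, log2 -0.05, SE 0.35) and miR-548ar-5p (1.02 ± 0.276 and 0.764 ± 0.0638 CPM, log2 -0.42, SE 0.41) overlapped between groups. So did the joined miR-548h-3p and miR-548z (log2 0.53, SE 0.58). When each library was left out in turn, the log2 fold change ran from 0.12 (without control library 1) to 0.96 (without control library 3) for the joined row and from -0.64 (without control library 3) to -0.20 (without control library 1) for miR-548ar-5p. For miR-548b-5p it ran from -0.52 (without PRMT1 library 1) to -0.22 (without control library 1). The joined row, with 57 counts over 6 libraries, was the lowest member to be tested. The untested member of highest count was miR-548av-3p, with 77 counts concentrated in PRMT1 library 1. A count of 0 allows up to 0.195 to 0.251 CPM on the TMM scale (3 counts per library), which covers counting error only.

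Arm usage could be compared where both strands of a hairpin had rows of their own, which held for 14 hairpin names, 10 of them with at least 60 counts. The 5p strand led in 5 and the 3p strand in 5. The 5p share was 99.0% for miR-548j, 97.6% for miR-548ay, 94.7% for miR-548at, 92.6% for miR-548d and 75.3% for miR-548ar over all counts. It was 15.4% for miR-548e, 12.4% for miR-548b, 11.2% for miR-548aq, 7.23% for miR-548av and 2.93% for miR-548ap. The strand with most listed counts thus differed between hairpins derived from the same element. Strands of miR-548ap, miR-548av and miR-548j belong to nested pairs of names. Their shares also depend on how reads were divided, which was not tested, and cannot be read as strand preference alone. The same limit holds for miR-548d, miR-548ay and miR-548e. No sequence was found for either strand of miR-548d, for miR-548ay-5p or for miR-548e-3p, so their nesting was not examined.

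In miR-548b, the hairpin with most counts of this kind, the 5p share was 14.3%, 9.95% and 17.5% in the controls, and 12.9%, 8.98% and 12.3% under PRMT1. The groups overlapped, at 13.9% ± 3.77 and 11.4% ± 2.10 (SD, n = 3 each). MiR-548d kept 91.3% ± 2.87 and 94.1% ± 1.29 of its counts on the 5p strand. The strands of miR-548ar were nearly equal in PRMT1 library 1 (52.4% 5p, 11 against 10 counts), while its share was 75.0% to 94.7% elsewhere. For miR-548av the 5p strand led in control library 1, with 2 counts against 1, and PRMT1 library 2 had 0 counts of either strand.

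**Figure D5:**
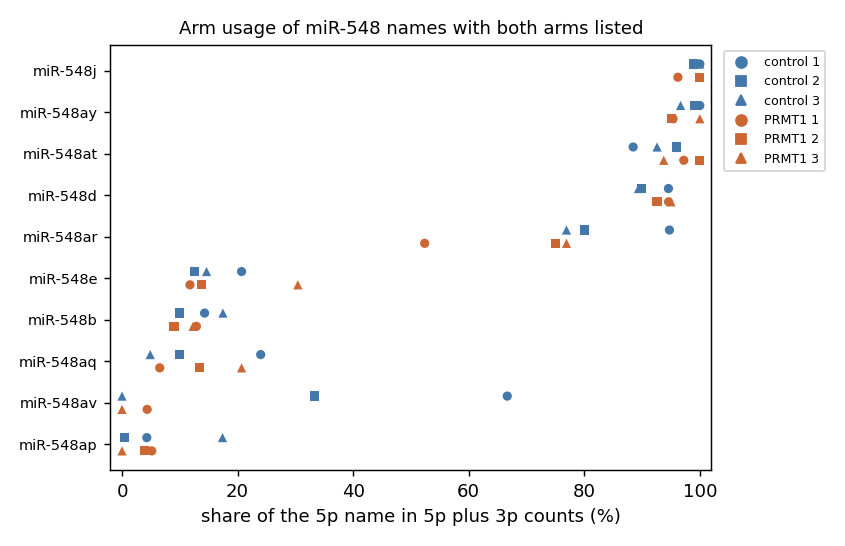
Share of the 5p name in the 5p plus 3p counts of each of 10 hairpin names, with a point per library. MiR-548j, miR-548ay, miR-548at and miR-548d lie above 88% in every library and miR-548b below 18%. The scattered points of miR-548av rest on few counts.

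Members that share a seed were also summed, since they could act on the same messages. Only the 43 members with a sequence entered these sums. Rows without one, among them miR-548ap-3p (696 counts), miR-548d-5p (597), miR-548ay-5p (577) and miR-548ad/ae-5p (492), were left out, and their seeds were not examined. Each sum may therefore be only a part of what the family holds of that seed. The 10 members with seed AAAGUAA came to 11.2, 11.1 and 8.87 CPM in the controls and to 8.91, 8.39 and 7.11 CPM under PRMT1. Control library 3 fell just below PRMT1 library 1, so the groups overlapped (10.4 ± 1.31 and 8.14 ± 0.928 CPM, log2 difference -0.35, SE 0.15). MiR-548j-5p gave 407 of these 729 counts. The 5 members with seed AAAAACU summed to 2.48 ± 0.874 and 4.10 ± 1.97 CPM with overlap (log2 difference 0.67, SE 0.53). Omission of PRMT1 library 1 gave 0.28, that of control library 1 gave 0.35 and that of PRMT1 library 3 gave 1.04, and 239 of the group's 265 counts were miR-548aq-3p. The seed AAAGUAC, held by miR-548k and miR-548av-5p in the family and by miR-8054 outside it, summed to 38.5 ± 8.48 and 42.6 ± 7.75 CPM (log2 difference 0.16, SE 0.24). Omission of control library 3 turned this difference to -0.062, while omission of PRMT1 library 3 left 0.002 and that of control library 2 gave 0.295.

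Of the 45 members that were not tested, the median had 9 counts over all libraries. In 4 of them (4 of 45) the groups did not overlap in CPM, where 5.85% of all 1059 untested names did not (62 of 1059). These were miR-548e-5p (6, 5 and 6 counts in the controls against 8, 8 and 7), miR-548h-5p (8, 8 and 6 against 4, 5 and 4), miR-548ar-3p (1, 3 and 3 against 10, 3 and 3) and miR-548ah-3p (0, 1 and 1 against 2, 2 and 2), all named after their values had been seen. The counts of miR-548ar-3p tie at 3, and without TMM scaling its groups overlapped (0.26 CPM in control library 3, 0.252 and 0.247 CPM in PRMT1 libraries 2 and 3). A group was at 0 in all its libraries for 8 members, 7 of them in control, and the highest of these had 6 counts in all, which is at the limit of what can be distinguished from 0.

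Other miRNAs of transposon origin were set beside the family as a list. MiR-570-3p and both strands of miR-579 were the 3 tested names of 5 listed as related to MADE1 outside miR-548. Their log2 fold changes were 0.50 (SE 0.47) for miR-570-3p, 0.39 (SE 0.37) for miR-579-3p and -0.37 (SE 0.29) for miR-579-5p, and 0 of 3 passed. Of 17 names placed in other transposable elements, such as miR-28, miR-95 and miR-151a of LINE-2 elements, 14 were tested and 0 passed. Of these 14, 3 lay above and 11 below 0, whereas 53.9% of all tested names lay above 0. Their median was -0.07 and their range -0.376 to 0.661. Many of the 14 are the 2 strands of a single hairpin, so they are not independent. The within-group SD of log2 CPM had a median of 0.317 over the 18 miR-548 members and 0.345 over all 668 tested names.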

How the data were processed

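Small RNA was measured in 6 BEAS-2B libraries, 3 control and 3 PRMT1. The deposited counts are whole reads per small RNA name, and the TPM deposited by the authors equalled counts scaled to a library total of 1000000 within 0.005, so it was used only for that check. HISAT, Bowtie2, RSEM and GRCh37.p13 are named in the submitters' processing notes, without roles or versions. Reads were filtered by BGI per the series' design text. Names without a row were taken as 0. Names of low count were removed with filterByExpr, leaving 668 of 1727. After TMM scaling, edgeR 4.0.16 (quasi-likelihood F test, robust) compared the groups, with Benjamini-Hochberg adjustment over all 668. The SE was taken as the log2 fold change over the square root of F. DESeq2 1.42.0, limma 3.58.1 (voom), other scalings and filters, a replicate block and omission of each library were alternatives. The test was tried on simulated data. Seeds and coordinates came from RefSeq (GRCh38.p14), and host genes from GENCODE release 29. Named members were any past the adjusted threshold (0), the 12 of highest mean CPM, the 4 tested members of smallest p per direction, both arms of a hairpin where both were tested, and the members nearest the filter. Members and lists were chosen with earlier results of these data known. Other names were chosen after their values were seen. Scripts ran in R 4.3.3.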

Additional observations from a re-analysis of the deposited data

How the results depend on the processing

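The count of 0 members called by edgeR stayed 0 under RLE, upper quartile and library size scaling, limma-voom, the filter of CPM 10 in 3 libraries, the replicate block, all rows of the tables, summing of members by seed and omission of each library. The filter of CPM 10 left only 3 members to test, among them neither miR-548n nor miR-548ad/ae-5p. DESeq2 called 1 member and edgeR without a filter 2. Over all known miRNAs, 0 were called, against 4 with DESeq2, 9 without a filter, 1 with the replicate number as a block and 0 to 1 when a library was left out. In the main fit the replicate numbers were not used to pair libraries. Deviations from group means had correlations of -0.149 to 0.177 between same-numbered libraries and of -0.127 to 0.259 between others. With so few libraries these values cannot decide whether the numbers pair them. Among sums, the 5p difference of 0.13 was 0.013 with unarmed names placed by hairpin position and -0.137 without miR-548ad-5p and miR-548ae-5p, and the no-arm difference of -0.07 was -0.654 without miR-548k and 0.132 without miR-548n. The cause was not tested. The family difference ran from 0.007 to 0.119 over the scalings and from -0.089 to 0.149 when a library was left out. Of 253 values of named members, 25 changed sign, all in 7 members of small fold change. With library size only, miR-548b-3p was 0.054, miR-548ap-3p 0.103, miR-548d-5p 0.014 and miR-548s 0.066. With limma-voom, miR-548ap-3p was 0.436 and miR-548s 0.002. MiR-548ap-3p was 0.266 with the replicate block. With all rows, the joined miR-548c-5p was -0.04 and miR-548l -0.052. Leaving out a library gave -0.049 to 0.299 for miR-548k, -0.276 to 0.113 for miR-548b-3p, -0.616 to 0.589 for miR-548ap-3p, -0.271 to 0.06 for miR-548d-5p, -0.244 to 0.261 for miR-548s, -0.142 to 0.174 for miR-548c-5p and -0.131 to 0.311 for miR-548l. Members summed by seed had no value of their own there. At 16 of 18 tested members means were below 10 CPM in both groups, which limits precision.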

Other observations

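A few reads named for miR-548 were listed outside the mature class. Hairpin rows of miR-548 names held 1, 0 and 0 counts in control libraries against 1, 4 and 0 under PRMT1, and the Rfam mir-548 precursor row held 1 count, in PRMT1 library 3.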
